A study of Mus musculus with 18 samples.

Results

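Anergic wild-type (WT) CD4+ T cells, which carry the surface marks of long contact with self-antigen, were compared with naive WT CD4+ T cells given an acute TCR stimulus for 3 h. The comparison rests on 6 of the 18 RNA-seq libraries of the series, 3 from WT anergic cells and 3 from WT stimulated cells, chosen by the genotype, sort gate and stimulation in the labels. One library of each kind came from each of 3 bone marrow chimeras, numbered 10, 11 and 12. The chimeras were irradiated hosts reconstituted with DKO marrow, which lacks *Nr4a1* and *Nr4a3*, and WT marrow at 1:5, so that all WT cells studied here had matured beside DKO cells of the same host. The labels give the strain as C57BL/6 and the tissue as spleen and lymph node. They do not give an age for each mouse.

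Both populations were sorted as CD25-CD4+ cells. Anergic cells were CD44hi FR4hi CD73hi and went from the sorter into lysis buffer with no culture. The other cells were CD44lo FR4lo CD73lo and were kept for 3 h on plate-bound anti-CD3 at 8 µg/mL and anti-CD28 at 2 µg/mL before lysis. The same naive gate was also sequenced directly ex vivo, which gave 3 WT naive libraries that serve as a reference level below. The effect of the stimulus and that of 3 h in culture cannot be told apart in these libraries, nor can anergy and the other states that cells of a CD44hi gate may hold.

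As background, engagement of the TCR with CD28 activates the calcium and NFAT, MAPK and AP-1, and NF-κB pathways within minutes and induces the NR4A and EGR families as immediate early genes. MYC then drives amino acid uptake and ribosome production as the cell grows toward its first division. Chronic stimulation by self-antigen without costimulation instead leads to anergy, in which CD4+ T cells persist with FR4 and CD73 on the surface, carry inhibitory receptors and respond poorly to a new stimulus. Part of the FOXP3+ Treg lineage shares this surface phenotype, and a CD25- gate removes only the Tregs that carry CD25.

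The total count was 20851693 to 24195860 in the 3 WT anergic libraries and 30800430 to 39752234 in the 3 WT stimulated ones. The WT stimulated library of chimera 12 stood apart from the others. Levels are given as TPM, the share of a library's reads on a gene after division by gene length. This library had 16878 genes at 1 TPM or more, as against 29002 and 31649 in the other WT stimulated libraries and 30242 to 33824 in the WT anergic libraries. Odorant and pheromone receptor genes, which are not known to be used by T cells, took 554 CPM (counts scaled to depth) in it, as against 1826 to 3117 CPM in the other 5 libraries. The WT naive library of chimera 12, part of the reference level below, stood apart in the same way. It had 18341 genes at 1 TPM or more and 775.6 CPM of these receptor genes. The WT naive libraries of chimeras 10 and 11 had 28283 and 33190 genes and 1973 and 2838 CPM. The scaling of the counts moved with the WT stimulated library of chimera 12. Among the 15067 genes with an average log2 CPM over 1 the median log2 fold change was 0.02, and over all genes tested it was 0.31. The abundant genes with an average log2 CPM over 5 had a median of −0.56, which was −0.28 without that library. Fold changes below come from the scaled counts, so that they can differ in size, and for near-equal levels in sign, from the ratio of the TPM.

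Cells are WT from here on unless DKO is named. Of 33795 genes tested, 2595 (7.68%) were higher in anergic cells and 4049 (12.0%) were lower there, at an adjusted p under 0.05 (edgeR's quasi-likelihood test with the chimera as a block and Benjamini-Hochberg adjustment). An absolute log2 fold change over 2 was reached by 1032 of the higher and 694 of the lower genes. The higher count fell to 1394 without chimera 10 and 1364 without chimera 11, and the lower count to 2519 without the anergic library of chimera 12. Of the calls, 39.1% were higher, a share that was 48.6% without the stimulated library of chimera 12, 33.3% with RLE factors and 62.3% with limma on log2(TPM + 1). With tests on genes with an average log2 CPM over 1 alone, 3446 of 15243 were higher and 4403 lower, larger shares than over all genes. Below, a positive log2 fold change means a higher level in anergic cells, adjusted p are those of edgeR's test, and levels are TPM of chimeras 10, 11 and 12 in this order.

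**Figure D1:**
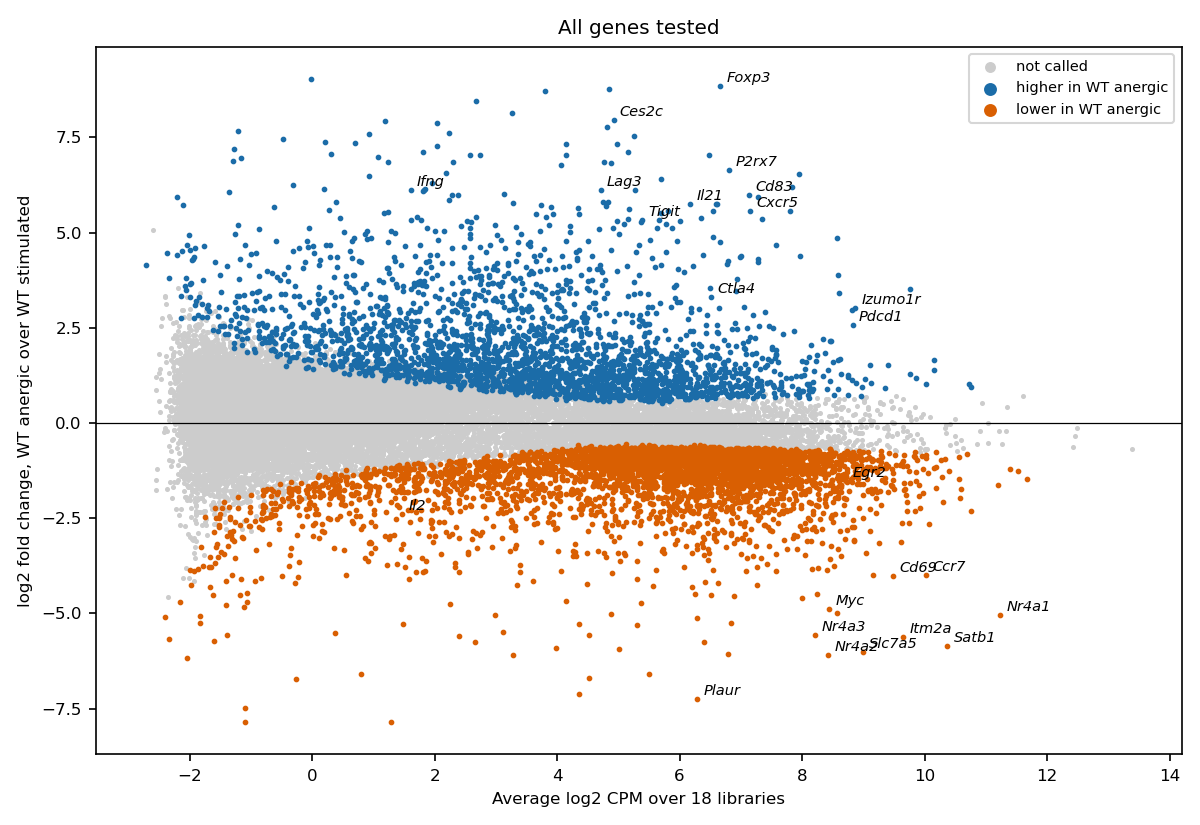
Each point is one of 33795 genes, with the average log2 CPM over 18 libraries on the x axis and the log2 fold change of anergic over stimulated cells on the y axis. Blue points are the 2595 genes called higher and orange points the 4049 called lower. *Foxp3*, at 8.86, and *Plaur*, at −7.24, lie near the ends among abundant genes.

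The sort gates were read in the RNA. *Izumo1r*, which encodes FR4, stood at 1950, 1970 and 2020 TPM in anergic cells and at 130, 197 and 222 TPM in stimulated cells (log2 fold change 3.01 ± 0.305 (SE), adjusted p = 5.02e-08). *Nt5e*, which encodes CD73, stood at 465, 537 and 433 TPM and at 13.4, 12 and 10.9 TPM (log2 fold change 4.86, adjusted p = 4.95e-12). Both genes had every anergic library above every stimulated one. *Cd44* was higher, by 2.39 on the log2 scale (adjusted p = 3.08e-08). These genes follow the markers on which the cells were sorted and are no finding. The CD4+ T cell markers *Cd3e*, *Cd4* and *Trac* were abundant in all 6 libraries, at 480 TPM or more, and *Cd8a* was at 0.398 TPM or less.

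The NR4A family of nuclear receptors separated the 2 states by a wide margin. *Nr4a1*, which encodes NUR77 and is often used as a reporter of TCR signal strength, stood at 170, 195 and 185 TPM in anergic cells and at 2930, 4790 and 5440 TPM in stimulated cells. In GENCODE vM21 (GRCm38) the gene lies on chromosome 15, 101254269 to 101274795. The groups did not overlap, and the log2 fold change was −5.05 ± 0.374 (SE) with an adjusted p of 2.84e-10. *Nr4a2* stood at 8.42, 9.03 and 8.27 TPM and 295, 501 and 471 TPM, with a log2 fold change of −6.10 (adjusted p = 2.08e-10). *Nr4a3* stood at 6.33, 9.72 and 11.3 TPM and 233, 408 and 300 TPM, with a log2 fold change of −5.57 (adjusted p = 2.18e-12). In naive cells the 3 genes were at 83.8 ± 7.92, 1.54 ± 0.379 and 2.76 ± 0.591 TPM (SD, n = 3), so that anergic cells lay nearer to the naive than to the stimulated level.

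The EGR family, zinc finger factors induced through the MAPK pathway, differed less. *Egr2*, which is known for its part in anergy as well as in activation, stood at 332, 279 and 301 TPM in anergic cells, 508, 673 and 697 TPM in stimulated cells and 37.4 ± 1.02 TPM (SD, n = 3) in naive cells. The 3 anergic libraries were below the 3 stimulated ones, with a log2 fold change of −1.53 ± 0.29 (SE) (adjusted p = 0.000292). *Egr1* and *Egr3* were lower in anergic cells as well, with log2 fold changes of −2.64 (adjusted p = 6.80e-07) and −3.04 (adjusted p = 1.73e-07). *Egr4* went the other way and was higher, at 4.26, 4.19 and 6.41 TPM against 0.342, 0.953 and 0.68 TPM (log2 fold change 2.40, adjusted p = 0.0013), a call that was lost without chimera 10 (adjusted p = 0.0801).

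Over the list of immediate early genes, 23 of 26 tested members were lower and 1, *Egr4*, was higher in anergic cells, with a median log2 fold change of −2.31. Over all genes tested, 12.0% were lower and the median was 0.31. The AP-1 subunit genes *Fos* and *Jun* were among the lower members, with log2 fold changes of −3.79 (adjusted p = 4.48e-10) and −2.30 (adjusted p = 2.07e-05), and *Fosl2* stood at 1.82, 4.85 and 2.22 TPM against 63.9, 78.5 and 88.2 TPM (log2 fold change −5.26, adjusted p = 8.82e-11). *Irf4*, which encodes a transcription factor induced in proportion to TCR signal, stood at 55.5, 64.7 and 61.4 TPM in anergic and 538, 528 and 522 TPM in stimulated cells (log2 fold change −3.57 ± 0.265 (SE), adjusted p = 2.89e-10). Naive cells had 4.78 ± 0.602 TPM (SD, n = 3), the lowest of the 3 states. *Cd69*, an early activation marker that keeps T cells in lymphoid tissue, stood at 64.6, 57.8 and 60 TPM and 548, 716 and 889 TPM (log2 fold change −4.02, adjusted p = 1.23e-09). *Nfatc1*, which encodes an NFAT factor that drives its own transcription, showed no called difference, at 689, 763 and 687 TPM against 667, 814 and 778 TPM (log2 fold change −0.54 ± 0.281 (SE), adjusted p = 0.214), and was at 132 ± 3.61 TPM (SD, n = 3) in naive cells. Against naive cells, *Egr2* and *Nfatc1* were higher in anergic cells, by 2.80 and 2.22 on the log2 scale, while *Fos* differed by 0.44, which did not pass the test.

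**Figure D2:**
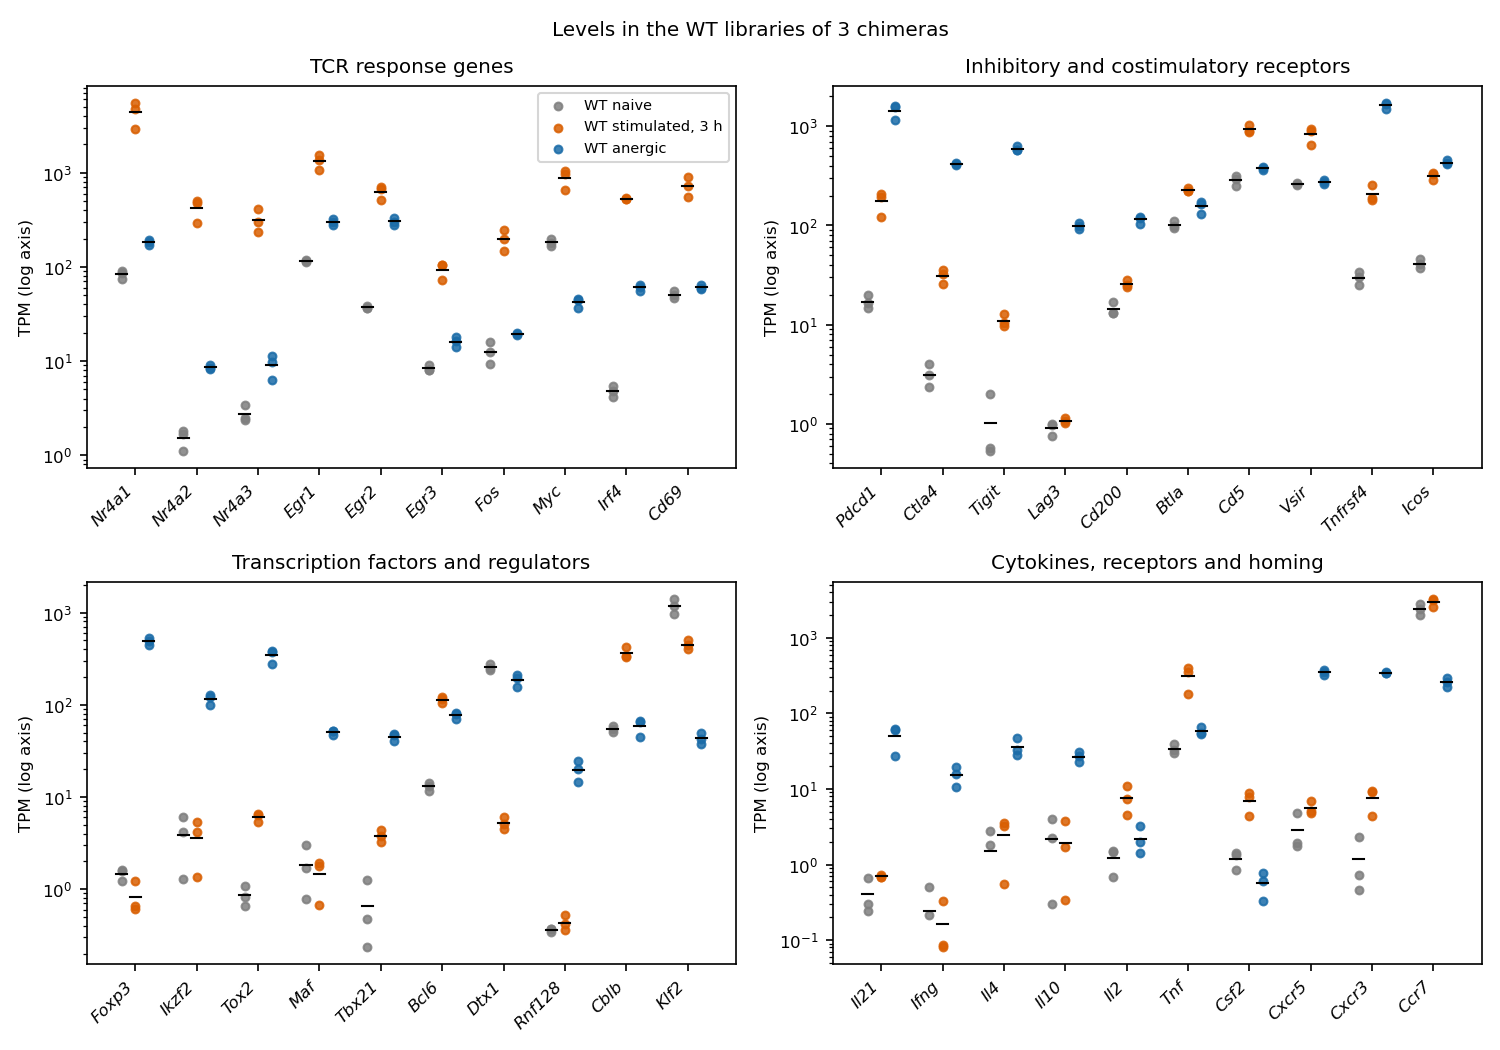
TPM on a log axis of 40 genes in the naive (grey), stimulated (orange) and anergic (blue) libraries, with 1 point for each of 3 chimeras and a black line at the mean. A value of 0 has no point on the log axis. *Nr4a1*, *Nr4a2*, *Nr4a3* and *Myc* are highest after stimulation, while *Tigit*, *Lag3*, *Foxp3*, *Cxcr5* and *Il21* are high in anergic cells alone of the 3 states.

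NF-κB pathway genes were lower in anergic cells in 13 of 18 and higher in 2, with a median of −1.23. Leaving out single libraries or chimeras gave 1 to 5 higher members. *Nfkbid*, which encodes an atypical nuclear IκB protein, stood at 227, 281 and 265 TPM and 1200, 1650 and 2010 TPM (log2 fold change −3.14, adjusted p = 7.55e-08). *Tnfaip3*, which encodes the deubiquitinase A20 that limits NF-κB, had a log2 fold change of −2.38 (adjusted p = 5.60e-07), and the NF-κB subunit gene *Rel* one of −2.27 (adjusted p = 1.32e-06). *Bcl3*, another nuclear IκB gene, was higher, at 184, 206 and 178 TPM against 42.5, 40.5 and 62.1 TPM (log2 fold change 1.52, adjusted p = 0.000319), with naive cells at 152 ± 22.3 TPM (SD, n = 3).

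Short motifs of factors that act downstream of the TCR were counted in the 250 bases before the start site of each gene, in RefSeq promoters of GRCm38.p6, on both strands. The cAMP response element TGACGTCA was present in 116 of 2962 promoters (3.92%) of genes lower in anergic cells, 21 of 1876 (1.12%) of genes higher and 2.03% of all 17567 tested genes with a promoter. The E-box CACGTG, which MYC can bind, was present in 10.2%, 6.98% and 6.97% of these promoters. The AP-1 motif TGANTCA went the other way, with 4.29%, 5.76% and 6.22%. NF-κB sites were found in 4.52%, 4.58% and 4.12% of the 3 sets and in 7 of the 15 promoters (46.7%) of the NF-κB list. The NR4A motif NBRE, AAAGGTCA, was present in 1.01%, 0.693% and 1.18%, and the CArG box in 0.979%, 1.07% and 1.26%. By list, the E-box was in 1 of 25 ribosome biogenesis, 4 of 19 one-carbon and 3 of 21 immediate early promoters. It was in 1 of 15 promoters of the NF-κB list and 0 of 16 of interferon-stimulated genes. These are descriptions with no test, and a match does not show that a factor is bound. The windows printed here show the motif in capitals within 30 bases, 5′ to 3′ on the strand of the gene. The cAMP response element (CRE) and E-box windows are each from the named gene with the largest fall in anergic cells that holds the motif. The NF-κB windows are from the genes of its list with the largest falls that hold a site. The choice was made after the values were seen, among named genes at 20 TPM or more in stimulated cells. Left out were genes on a chromosome set aside by design, the antigen-presenting and B cell lists, and motifs near the ends of the 250 bases. None of the motifs contains another.
*Btg2* (antiproliferative factor, chr1:134079303-134079332, minus strand, CRE): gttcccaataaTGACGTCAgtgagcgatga
*Iars* (isoleucyl-tRNA synthetase, chr13:49682049-49682078, plus strand, E-box): gaccaatcgccaCACGTGttgtttgtaggt
*Tnfaip3* (A20, chr10:19015516-19015545, minus strand, NF-κB site): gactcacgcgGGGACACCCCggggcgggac
*Rel* (NF-κB subunit, chr11:23771042-23771071, minus strand, NF-κB site): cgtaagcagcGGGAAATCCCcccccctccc
The capitals lie 159 to 166, 64 to 69, 116 to 125 and 83 to 92 bases before the start site of *Btg2*, *Iars*, *Tnfaip3* and *Rel*. In the order printed, these genes had log2 fold changes of −1.42, −3.49, −2.38 and −2.27.

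Growth genes were lower in anergic cells across several lists. All 30 of 30 ribosome biogenesis genes were lower in anergic than in stimulated cells, with a median of −2.49, and this count held under each of the 22 alternatives. Their summed level was 1940, 1930 and 1870 TPM in anergic, 6640, 7730 and 8200 TPM in stimulated and 3090 ± 47.9 TPM (SD, n = 3) in naive libraries, so that anergic cells were also the lowest of the 3 states. *Polr1b*, a subunit gene of RNA polymerase I, stood at 18.8, 23.1 and 24.6 TPM and 136, 151 and 123 TPM (log2 fold change −3.08 ± 0.249 (SE), adjusted p = 1.23e-09). Of the tRNA synthetase and translation genes 23 of 24 were lower, for example *Cars* at 19.4, 25.2 and 18.1 TPM against 314, 323 and 360 TPM (log2 fold change −4.48, adjusted p = 3.50e-10). Chaperone genes were lower in 21 of 24 and higher in 1, with a median of −1.74.

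*Myc*, which encodes the factor that directs this growth program, stood at 44.4, 36.6 and 46 TPM in anergic and 661, 957 and 1030 TPM in stimulated cells (log2 fold change −4.88 ± 0.343 (SE), adjusted p = 1.16e-10). At 183 ± 16.5 TPM (SD, n = 3), naive cells had more *Myc* RNA than anergic cells (log2 fold change of anergic over naive cells −2.35). *Slc7a5*, which encodes the large neutral amino acid transporter that is needed for T cell growth, was at 23.9, 20.9 and 22.2 TPM against 885, 997 and 1180 TPM (log2 fold change −6.01 ± 0.363 (SE), adjusted p = 8.93e-12). The polyamine enzyme genes *Odc1* and *Srm* had log2 fold changes of −3.12 (adjusted p = 1.11e-07) and −4.26 (adjusted p = 4.05e-10). In the list of one-carbon and nucleotide synthesis genes, 18 of 20 were lower and 1, the thymidylate synthase gene *Tyms*, was higher (14, 13.2 and 13.4 TPM against 4.97, 3.52 and 3.05 TPM, log2 fold change 1.42, adjusted p = 0.000123). The serine enzymes *Shmt1*, *Shmt2* and *Phgdh* were among the former, at −4.52, −3.87 and −3.76 on the log2 scale. Cholesterol synthesis genes were lower in 14 of 24, among them the squalene epoxidase gene *Sqle* (−3.17), and higher in 3, the latter 1 without chimera 10 or 11, 6 without chimera 12 and 5 without its stimulated library.

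Glycolysis genes went both ways, with 5 of 16 higher and 4 lower in anergic cells. With tests on genes with an average log2 CPM over 1 alone, 3446 of 15243 were higher and 4403 lower. The shares of this list are not far from those. *Tpi1* (triosephosphate isomerase) stood at 208, 270 and 188 TPM against 27.2, 22.2 and 29.8 TPM (log2 fold change 2.59, adjusted p = 6.69e-07). *Ldha* and *Ldhb*, which encode the 2 lactate dehydrogenase subunits, were opposite to each other, at −1.71 (adjusted p = 9.34e-05) and 1.30 (adjusted p = 0.000156). The counts of this list moved with single libraries. The higher count was 2 without chimera 10, 3 without chimera 11 or the stimulated library of chimera 10 and 8 without chimera 12, and the lower count was 2 without chimera 11, chimera 12 or either library of chimera 12.

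**Figure D3:**
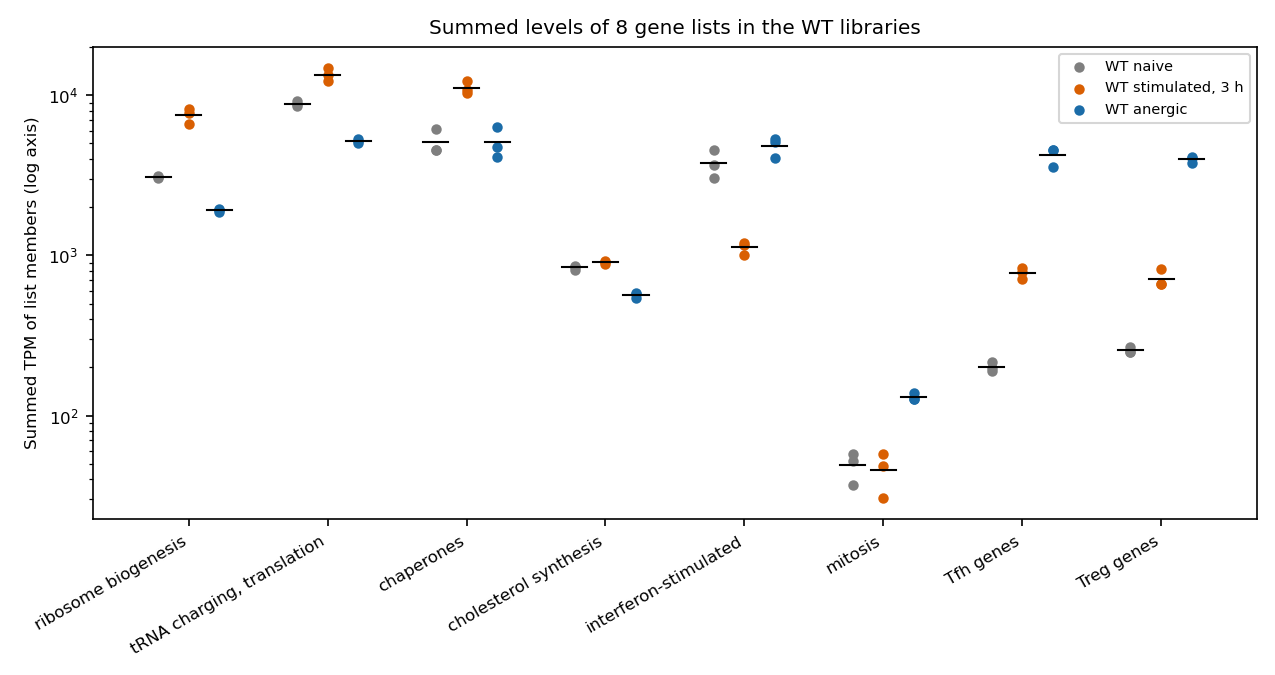
Summed TPM, on a log axis, of the members of 8 gene lists in the naive, stimulated and anergic libraries, with 1 point for each of 3 chimeras and a line at the mean. Growth lists (ribosome biogenesis, translation, chaperones) peak after stimulation, interferon-stimulated genes are lowest there, and mitosis, T follicular helper and Treg genes are highest in anergic cells.

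Genes of inhibitory receptors, their ligands and relatives were higher in anergic cells in 11 of 19 and lower in 4. *Pdcd1*, which encodes PD-1, stood at 1600, 1570 and 1150 TPM in anergic cells and 122, 194 and 209 TPM in stimulated cells (log2 fold change 2.58 ± 0.345 (SE), adjusted p = 3.49e-06). *Ctla4*, whose product competes with CD28 for its ligands, stood at 410, 422 and 414 TPM and 35.6, 25.9 and 32.3 TPM (log2 fold change 3.31 ± 0.262 (SE), adjusted p = 7.90e-10). *Tigit* stood at 574, 630 and 571 TPM and 12.9, 10.3 and 9.78 TPM (log2 fold change 5.32 ± 0.33 (SE), adjusted p = 1.28e-11). All 3 were also higher in stimulated than in naive cells, by 3.61, 3.52 and 3.68 on the log2 scale. *Lag3*, which encodes an MHC class II binding inhibitory receptor, was the contrast to them. It stood at 99.1, 105 and 91.6 TPM in anergic cells and 1.15, 1.01 and 1.07 TPM in stimulated cells (log2 fold change 6.12 ± 0.284 (SE), adjusted p = 2.49e-13), and at 0.91 ± 0.136 TPM (SD, n = 3) in naive cells.

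The members of that list called lower in anergic cells were *Cd5*, at 392, 379 and 361 TPM against 898, 884 and 1030 TPM (log2 fold change −1.76, adjusted p = 3.19e-05), the VISTA gene *Vsir* (−2.07, adjusted p = 1.43e-05), *Cd274* (−2.06, adjusted p = 1.76e-05) and *Btla* (−1.01, adjusted p = 0.00641). *Cd274* encodes PD-L1, a ligand of PD-1. The call for *Btla* was lost without the anergic library of chimera 12 (adjusted p = 0.0844) and in the fit of the 6 libraries alone (adjusted p = 0.0798). CD5 is known as a receptor whose level follows the TCR signal a cell receives. Costimulatory and TNF family members split evenly, with 8 of 25 higher and 8 lower. With tests on genes with an average log2 CPM over 1 alone, 3446 of 15243 were higher and 4403 lower. The shares of this list are not far from those. *Tnfrsf4*, which encodes OX40, stood at 1690, 1490 and 1700 TPM against 188, 179 and 254 TPM (log2 fold change 2.49, adjusted p = 2.32e-07), and *Cd83* at 870, 795 and 747 TPM against 8.87, 8.39 and 10.2 TPM (5.98, adjusted p = 2.16e-12). *Cd40lg*, whose product gives help to B cells, was lower, at 200, 182 and 114 TPM against 754, 1170 and 1150 TPM (log2 fold change −3.10, adjusted p = 2.58e-07).

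*Icos*, which encodes a CD28 family costimulator, showed no called difference, at 412, 457 and 423 TPM in anergic and 340, 286 and 327 TPM in stimulated cells (log2 fold change −0.01 ± 0.246 (SE), adjusted p = 0.991). Its sign turned with the scaling and with the library of chimera 12, over −0.28 to 0.44, and adjusted p ran from 0.0148 with limma to 0.991. Both states lay above the naive level of 41.3 ± 4.26 TPM (SD, n = 3).

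Genes known from studies of anergy did not move as one. Of 23 tested, 5 were higher and 12 lower in anergic than in stimulated cells, with a median of −0.73. Against naive cells, 12 were higher and 2 lower in anergic cells, with a median of 1.26. In stimulated cells 16 were higher and 2 lower than in naive cells, with a median of 2.26. Over all genes, 5.11% were higher and 4.71% lower in anergic than in naive cells, and 7.13% and 4.79% in stimulated cells. This list holds the NR4A and EGR genes described above. GRAIL, a ubiquitin ligase of anergic T cells, is the product of *Rnf128*, which stood at 24.4, 19.9 and 14.6 TPM in anergic and 0.364, 0.419 and 0.519 TPM in stimulated cells (log2 fold change 5.03 ± 0.399 (SE), adjusted p = 8.42e-10). *Cblb*, which encodes another E3 ligase that restrains the TCR, was lower, at 44.6, 66.6 and 64.3 TPM against 427, 338 and 326 TPM (log2 fold change −3.09 ± 0.264 (SE), adjusted p = 3.08e-09), and was at 54.9 ± 4.18 TPM (SD, n = 3) in naive cells. *Dtx1*, which encodes the ligase Deltex1, stood at 193, 155 and 210 TPM and 4.47, 5.05 and 6.08 TPM (log2 fold change 4.67 ± 0.3 (SE), adjusted p = 2.32e-11). It was abundant in naive cells as well, at 256 ± 19.9 TPM (SD, n = 3), with a log2 fold change of stimulated over naive cells of −5.37.

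*Tox2*, which encodes an HMG box factor of exhausted and follicular T cells, stood at 386, 373 and 279 TPM in anergic and 5.38, 6.47 and 6.44 TPM in stimulated cells (log2 fold change 5.35 ± 0.367 (SE), adjusted p = 7.49e-11). Its relative *Tox* stood at 156, 179 and 150 TPM and 105, 89.1 and 91.6 TPM, with a log2 fold change of 0.33 ± 0.247 (SE) that did not pass (adjusted p = 0.411) but did in 8 of 22 alternatives. The diacylglycerol kinase genes *Dgka* and *Dgkz*, whose products damp Ras signaling, had log2 fold changes of −0.73 (adjusted p = 0.0506) and 0.67 (adjusted p = 0.068), each past the threshold in 11 of 22 alternatives.

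Attenuators of TCR signaling were lower in anergic cells in 16 of 33 and higher in 5, the latter 3 without chimera 10, 2 without chimera 11, 12 without chimera 12 and 11 without the stimulated library of chimera 12. The MAPK phosphatase genes differed among themselves. *Dusp5*, which encodes a nuclear ERK phosphatase, stood at 47.8, 58.1 and 57.1 TPM against 419, 501 and 596 TPM (log2 fold change −3.70, adjusted p = 4.28e-10), and *Dusp2* had a log2 fold change of −2.62 (adjusted p = 2.03e-07). *Dusp6* showed no called difference, at 112, 109 and 90.9 TPM against 108, 115 and 115 TPM (log2 fold change −0.57, adjusted p = 0.135). The adaptor gene *Lax1*, whose product inhibits TCR signaling, was higher, at 649, 662 and 648 TPM against 84.5, 77.6 and 81.4 TPM (log2 fold change 2.55 ± 0.238 (SE), adjusted p = 1.36e-08). *Spry1*, a Ras pathway inhibitor gene, was at 41, 42.2 and 44.1 TPM in anergic, 84.3, 111 and 133 TPM in stimulated and 1.5 ± 1.19 TPM (SD, n = 3) in naive cells. It was thus lower in anergic than in stimulated cells (log2 fold change −1.82, adjusted p = 0.000799) and higher than in naive cells (4.61). Genes of the proximal TCR machinery were lower in 10 of 23, among them *Rasgrp1* (−2.16) and *Txk* (−2.33), and higher in 1. The higher count ran from 0 without chimera 10 or 11 to 6 without chimera 12.

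**Figure D4:**
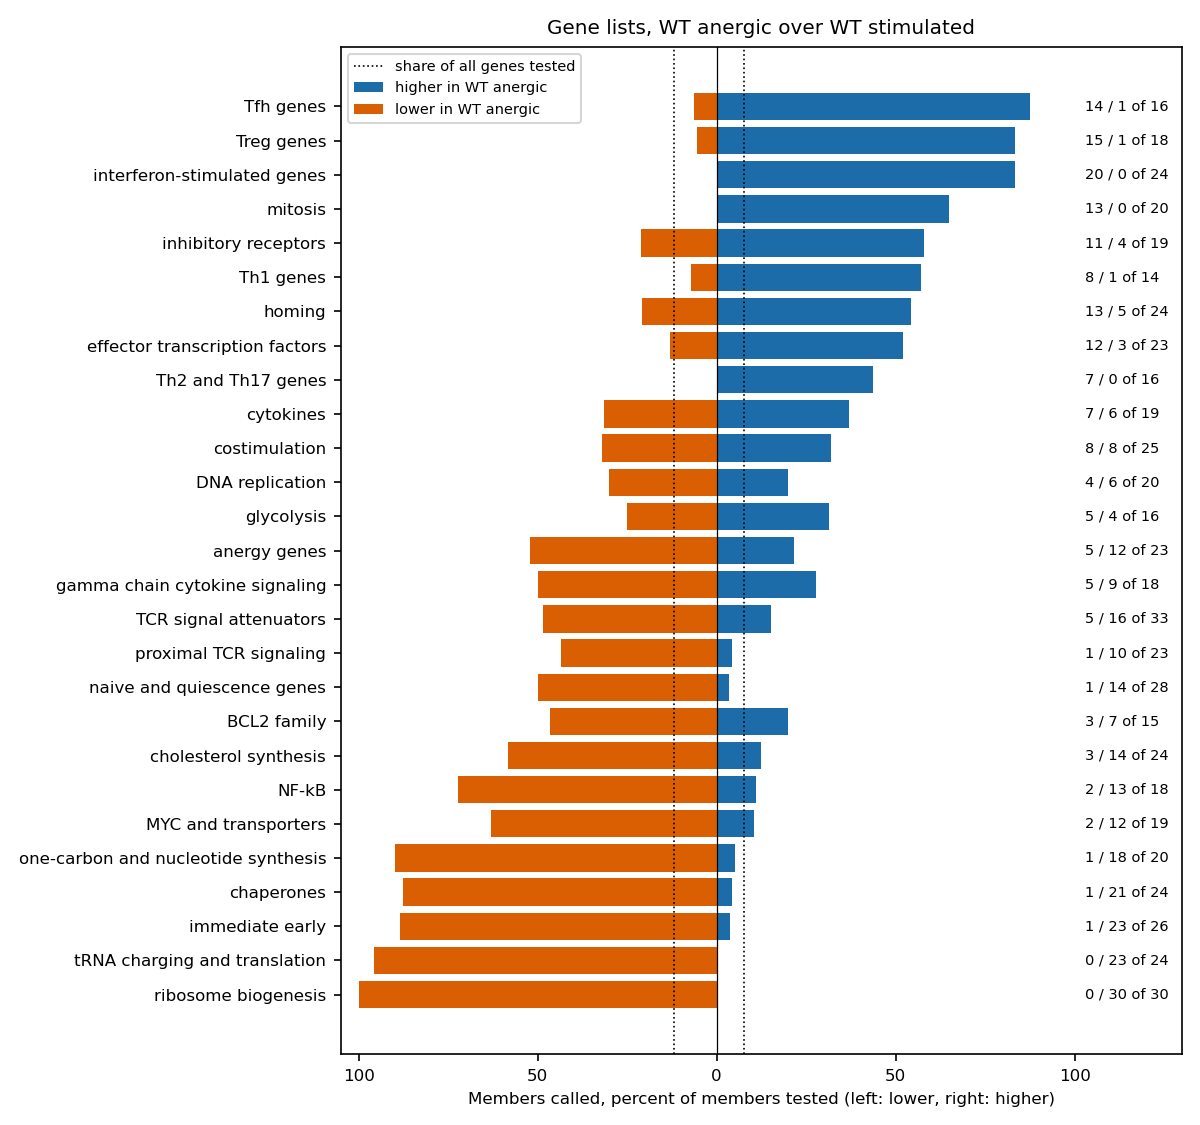
Share of tested members called higher (blue, to the right) or lower (orange, to the left) in anergic than in stimulated cells for 27 gene lists, with the counts printed beside each bar. Dotted lines mark the shares over all genes tested, 7.68% higher and 12.0% lower. These cover genes of every level. With tests on genes with an average log2 CPM over 1 alone, 3446 of 15243 were higher and 4403 lower, which are larger shares. Ribosome biogenesis, with 30 of 30 lower, and T follicular helper genes, with 14 of 16 higher, stand at the ends.

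Treg genes were higher in anergic cells in 15 of 18 and lower in 1. *Foxp3*, the lineage factor of Tregs, stood at 447, 496 and 533 TPM in anergic and 1.22, 0.615 and 0.663 TPM in stimulated cells (log2 fold change 8.86 ± 0.399 (SE), adjusted p = 1.47e-13), with naive cells at 1.47 ± 0.218 TPM (SD, n = 3). In such pools of cells, a larger share of cells of one type and more RNA in each cell cannot be told apart. The Treg genes *Ikzf2*, *Lrrc32* and *Nrp1*, which encode Helios, GARP and neuropilin-1, stood at 98.7, 129 and 120 TPM, at 132, 175 and 266 TPM and at 183, 243 and 235 TPM in anergic cells. Their log2 fold changes were 4.76 (adjusted p = 3.94e-11), 5.29 (adjusted p = 4.06e-11) and 5.57 (adjusted p = 2.59e-13). *Il2ra*, which encodes CD25 and on which the cells were gated as negative, was the exception, at 27.8, 33.4 and 41.4 TPM against 116, 143 and 163 TPM (log2 fold change −2.55 ± 0.303 (SE), adjusted p = 5.89e-07). It lay above the naive level of 1.47 ± 0.612 TPM (SD, n = 3) in both states. *Il2rb*, which encodes the IL-2 receptor β chain, was higher in anergic cells, at 992, 1030 and 1000 TPM against 41.4, 56.8 and 51.2 TPM (log2 fold change 3.89, adjusted p = 3.54e-10).

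T follicular helper (Tfh) genes were higher in 14 of 16, with a median of 5.08. *Cxcr5*, which encodes the receptor that guides T cells to B cell follicles, stood at 372, 358 and 321 TPM against 5.17, 4.81 and 6.88 TPM (log2 fold change 5.57 ± 0.378 (SE), adjusted p = 6.02e-11). *Il21*, a cytokine that drives germinal center B cells, stood at 61.1, 61.6 and 27.6 TPM against 0.679, 0.73 and 0.684 TPM (log2 fold change 5.74 ± 0.435 (SE), adjusted p = 4.05e-10). The transcription factor genes *Maf* and *Ascl2* had log2 fold changes of 4.81 (adjusted p = 6.74e-12) and 7.32 (adjusted p = 2.57e-12). *Ascl2* had 3, 4 and 4 reads in the stimulated libraries, so that the size of its fold change depends on values near 0. *Bcl6*, the lineage factor of Tfh cells, was the 1 member that was lower, at 79.3, 81.8 and 70.2 TPM in anergic and 104, 122 and 116 TPM in stimulated cells (log2 fold change −1.01 ± 0.234 (SE), adjusted p = 0.00238). Its call was lost in the fit of the 6 libraries alone (adjusted p = 0.0744). In naive cells *Bcl6* was at 13.1 ± 1.37 TPM (SD, n = 3).

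Genes of the other helper lineages were read as well. Th1 genes were higher in 8 of 14 and lower in 1. *Tbx21*, which encodes T-bet, stood at 40.3, 47.8 and 47.5 TPM against 3.25, 4.35 and 3.79 TPM (log2 fold change 3.13, adjusted p = 1.70e-06), and its target *Cxcr3* at 351, 339 and 345 TPM against 4.43, 9.51 and 9.15 TPM (5.12, adjusted p = 8.07e-10). Of the Th2 and Th17 genes, 7 of 16 were higher and none was lower (edgeR, and 0 at an unadjusted p under 0.05), with *Ccr6* at 5.42 (adjusted p = 6.58e-08) and *Rora* at 2.05 (adjusted p = 8.16e-07).

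Cytokine genes divided by state. *Ifng* stood at 19.4, 16 and 10.5 TPM in anergic and 0.0811, 0.329 and 0.0868 TPM in stimulated cells (log2 fold change 6.11 ± 0.645 (SE), adjusted p = 9.58e-08). It had 1, 5 and 1 reads in the stimulated libraries, so that the size of this fold change depends on values near 0. *Il4* stood at 32.3, 47.7 and 28.1 TPM against 3.51, 3.27 and 0.55 TPM (3.66, adjusted p = 1.26e-05), and *Il10*, a suppressive cytokine, at 27.5, 22.7 and 30.4 TPM against 3.77, 1.69 and 0.343 TPM (3.71, adjusted p = 2.56e-05). The opposite order held for 3 cytokines of the acute response. *Il2*, the T cell growth factor, stood at 1.97, 1.41 and 3.25 TPM against 4.59, 7.38 and 11.1 TPM (log2 fold change −2.39 ± 0.522 (SE), adjusted p = 0.00132), *Tnf* at 66.6, 55.7 and 53 TPM against 181, 349 and 394 TPM (−2.90, adjusted p = 1.89e-06) and *Csf2*, which encodes GM-CSF, at 0.331, 0.603 and 0.774 TPM against 4.33, 8.85 and 7.73 TPM (−4.05, adjusted p = 1.65e-05). *Csf2* had 2, 3 and 4 reads in the anergic libraries, so that the size of its fold change depends on values near 0. None of these 6 genes had overlapping groups, and the share of all genes without overlap was not counted. Of all 19 cytokine genes tested, 7 were higher and 6 lower.

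Of 28 genes tested that mark naive or resting T cells, 14 were lower in anergic cells and 1, *Nsg2*, was higher. The higher count ran from 0 without chimera 10 or 11 to 6 without chimera 12. *Klf2*, which encodes a quiescence factor, stood at 37.7, 49.8 and 43 TPM in anergic, 449, 401 and 498 TPM in stimulated and 1180 ± 212 TPM (SD, n = 3) in naive cells (log2 fold change of anergic over stimulated cells −3.81 ± 0.292 (SE), adjusted p = 4.82e-10). Its target *S1pr1*, which lets T cells leave lymph nodes, and the chemokine receptor gene *Ccr7* followed the same order of anergic below stimulated cells, at −2.37 and −4.00 on the log2 scale. *Satb1*, which encodes a chromatin organizer of thymocytes and naive T cells, stood at 7.72, 9.1 and 15.1 TPM against 451, 401 and 464 TPM (log2 fold change −5.87 ± 0.31 (SE), adjusted p = 1.36e-12). *Bach2*, a repressor of effector fates, had a log2 fold change of −3.54 (adjusted p = 5.35e-10). *Tcf7*, which encodes TCF-1, showed no called difference, at 1380, 1570 and 1320 TPM against 1550, 1080 and 1110 TPM (log2 fold change −0.22 ± 0.271 (SE), adjusted p = 0.621). Its relative *Lef1* was lower (−1.78, adjusted p = 6.42e-06).

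Interferon-stimulated genes were higher in anergic cells in 20 of 24, and none was lower (edgeR, with 1 at an unadjusted p under 0.05, and 1 called by DESeq2 or without the stimulated library of chimera 10). Their summed level was 5340, 4070 and 5120 TPM in anergic, 1160, 1010 and 1190 TPM in stimulated and 3750 ± 772 TPM (SD, n = 3) in naive libraries. Set against naive cells, 24 of 24 members were lower in stimulated cells, while 4 were higher and 10 lower in anergic cells. These comparisons share libraries and are given side by side only. Against the same naive libraries, the test called 7.13% of genes higher and 4.79% lower in stimulated cells, and 5.11% higher and 4.71% lower in anergic cells. *Oas1a*, which encodes an antiviral RNA sensor, stood at 73.2, 75.1 and 90.8 TPM against 4.96, 6.74 and 4.17 TPM (log2 fold change 3.49 ± 0.246 (SE), adjusted p = 1.26e-10). *Zbp1*, a nucleic acid sensor gene, stood at 122, 93.1 and 116 TPM against 24.4, 18.6 and 17.9 TPM (2.02, adjusted p = 8.55e-08), below its naive level of 151 ± 22.9 TPM (SD, n = 3).

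The same reference placed the other groups. Of the 26 immediate early genes, 22 were above the naive level in stimulated cells, and 8 were above and 2 below it in anergic cells (each past the test). All 30 ribosome biogenesis genes were above the naive level in stimulated cells, and 19 were below it in anergic cells. Tfh genes exceeded it in 16 of 16 in anergic and 8 in stimulated cells, and Treg genes in 17 and 8 of 18.

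Mitosis genes were low throughout, yet 13 of 20 were higher in anergic cells and none was lower (edgeR, and 0 at an unadjusted p under 0.05). Their summed level was 126, 138 and 127 TPM in anergic and 57.9, 48.1 and 30.7 TPM in stimulated libraries. *Mki67*, which marks cycling cells, stood at 6.84, 10.6 and 10.1 TPM against 2.51, 1.8 and 0.357 TPM (log2 fold change 2.36 ± 0.347 (SE), adjusted p = 1.26e-05). The count of members higher fell to 4 without chimera 10, 6 without chimera 11, 8 without the anergic library of chimera 10 or 11, 7 without the stimulated library of chimera 11 and 8 in the fit of the 6 libraries alone. DNA replication genes went both ways, with 4 of 20 higher and 6 lower (median −0.05). With tests on genes with an average log2 CPM over 1 alone, 3446 of 15243 were higher and 4403 lower. The shares of this list lie near those. The higher count of this list was 0 without chimera 10 or without chimera 11. It fell to 2 without the anergic library of chimera 10 or 11 or the stimulated library of chimera 10 and to 1 without the stimulated library of chimera 11, and the lower count fell to 3 without the anergic library of chimera 12. In the fit of the 6 libraries alone the counts were 2 and 3, and with RLE factors 2 and 5. *Rrm2*, which encodes a ribonucleotide reductase subunit, was higher, at 16.8, 16.2 and 13.4 TPM against 4.66, 3.26 and 4.06 TPM (log2 fold change 1.54, adjusted p = 0.00217), as was the thymidine kinase gene *Tk1* (1.40, adjusted p = 0.00918). Both calls were lost without chimera 10 (adjusted p = 0.125 and 0.124) or chimera 11 (0.124 and 0.141), and that of *Tk1* also without the stimulated library of chimera 11 (0.0736). The replication clamp gene *Pcna* was lower, at 81.4, 85.3 and 72.3 TPM against 160, 199 and 206 TPM (log2 fold change −1.70, adjusted p = 1.92e-05). Of the CDK inhibitor genes, *Cdkn1a* was lower (−3.50, adjusted p = 3.47e-07) and *Cdkn2c* higher (4.76, adjusted p = 4.51e-08). In the list of cyclin and CDK inhibitor genes, 6 of 17 tested were higher and 4 lower (8 and 3 without the stimulated library of chimera 12).

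In the BCL2 family, 7 of 15 were lower and 3 higher, the former 4 without chimera 12 and 3 without the anergic library of chimera 12, and the latter 0 without chimera 10 and 1 without chimera 11 or the stimulated library of either. *Bcl2l11*, which encodes the death-inducing protein BIM, stood at 15.1, 18.3 and 16.9 TPM against 93.3, 71.3 and 63.9 TPM (log2 fold change −2.62 ± 0.246 (SE), adjusted p = 1.54e-08). The survival gene *Bcl2* was lower as well, at 25.5, 34 and 34.6 TPM against 75.7, 83.6 and 83.9 TPM (−1.86, adjusted p = 5.15e-06).

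Among abundant genes with an absolute log2 fold change of at least 2, those with the smallest adjusted p were led by *P2rx7* for the higher and *Satb1* for the lower. *P2rx7*, which encodes an ATP-gated channel, stood at 187, 209 and 201 TPM against 1.87, 1.4 and 1.22 TPM (log2 fold change 6.65 ± 0.273 (SE), adjusted p = 7.49e-14). The decoy IL-1 receptor gene *Il1r2* stood at 300, 312 and 274 TPM against 1.65, 1.61 and 0.53 TPM (7.55, adjusted p = 1.47e-13). With *Foxp3*, *Lag3* and *Nrp1*, the first 15 held *Cyfip1*, *Baiap3*, *Myo1f*, *Gpm6b*, *Pglyrp1*, *Ces2c*, *Gdpd5*, *Podnl1*, *Nrbp2* and *Angptl2*, whose log2 fold changes ran from 4.67 (*Gdpd5*) to 7.96 (*Ces2c*). Among those lower, *Plaur*, which encodes the urokinase receptor, stood at 0.962, 0.983 and 2.84 TPM against 109, 183 and 202 TPM (−7.24, adjusted p = 2.16e-12), and *Itm2a* at 115, 102 and 112 TPM against 4260, 3560 and 3940 TPM (−5.61, adjusted p = 3.25e-12). *Cnn3*, *Vipr1*, *Ramp3*, *Atp8b4*, *Tdrp* and *Igfbp4* had log2 fold changes of −5.75, −4.55, −6.05, −3.31, −5.12 and −5.00.

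Markers of other cells were read in the same libraries. Plasma cell and immunoglobulin genes were higher in anergic cells in 5 of 7, with summed levels of 4150 to 7580 TPM against 230 to 316 TPM. *Igkc* stood at 641, 286 and 2810 TPM against 1.38, 0.962 and 43.9 TPM and *Jchain* at 58.2, 8.37 and 178 TPM against 1.46, 0.813 and 4.91 TPM, with the highest values in the library of chimera 12. The B cell identity gene *Pax5* was near 0 in both groups, at 0.726 ± 0.0766 TPM (SD, n = 3) in anergic cells, and 2 of 10 B cell genes, *Cd22* and *Cd79b*, were higher. *Cd22* stood at 45, 34.3 and 28.3 TPM against 1.33, 0.474 and 0.134 TPM. Of the myeloid genes 1 of 10 was higher and 1 lower, with summed levels of 91.1 to 146 and 109 to 148 TPM, and neither call was made without the stimulated library or without the anergic library of chimera 12. Of the antigen-presenting cell genes 2 of 12 were lower and 0 higher (edgeR, 1 at an unadjusted p under 0.05), with summed levels of 401 to 491 and 174 to 372 TPM. Without the stimulated library of chimera 12, or without chimera 12, edgeR called 2 of them higher and 1 lower, as did limma. The part of such cells in the results above was not tested.

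The same comparison was made in the DKO cells of these chimeras. It contrasts other libraries than the WT comparison does. Both came from a shared fit of all 18 libraries, with common scaling, spread and chimera terms, so that they are not independent. Of the genes tested, 3517 (10.4%) had a higher level in DKO anergic cells and 2568 (7.60%) a higher level in DKO stimulated cells. The first count was 2013 without chimera 10 and 2042 without chimera 11, and the second 1339 without chimera 11 and 5186 without chimera 12. The second count was also 3807 without the WT stimulated library of chimera 12, which is not a DKO library. Transcripts of *Nr4a1* and *Nr4a3* were counted in the DKO stimulated libraries too, at means of 6520 and 504 TPM, so that counts over a whole gene do not check the deletion. Beside the WT counts given above, the DKO counts for ribosome biogenesis (30 of 30 lower), immediate early genes (23 of 26 lower), Tfh genes (15 of 16 higher) and interferon-stimulated genes (21 of 24 higher) are given as values only. In the test of the difference between the genotypes, 34 genes (0.101%) had a higher and 128 (0.379%) a lower WT than DKO fold change. This total of 162 was 24 without chimera 10 or without chimera 11, 657 without chimera 12, and 102 and 89 without the WT anergic library of chimera 10 and of chimera 12. The differences include the Treg genes *Foxp3*, *Lrrc32*, *Ikzf4* and *Itgae*, whose log2 fold changes were 8.86, 5.29, 2.83 and 5.36 in WT cells and 6.30, 1.51, 0.70 and 2.46 in DKO cells. The mean level of *Foxp3* was 492 TPM in WT anergic and 19.7 TPM in DKO anergic cells. For *Nr4a2*, *Egr2*, *Pdcd1*, *Lag3* and *Tox2* the WT minus DKO differences were −0.24, 0.18, −0.32, 0.15 and −1.40 on the log2 scale, and none passed the test (adjusted p from 0.329 to 0.928).

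**Figure D5:**
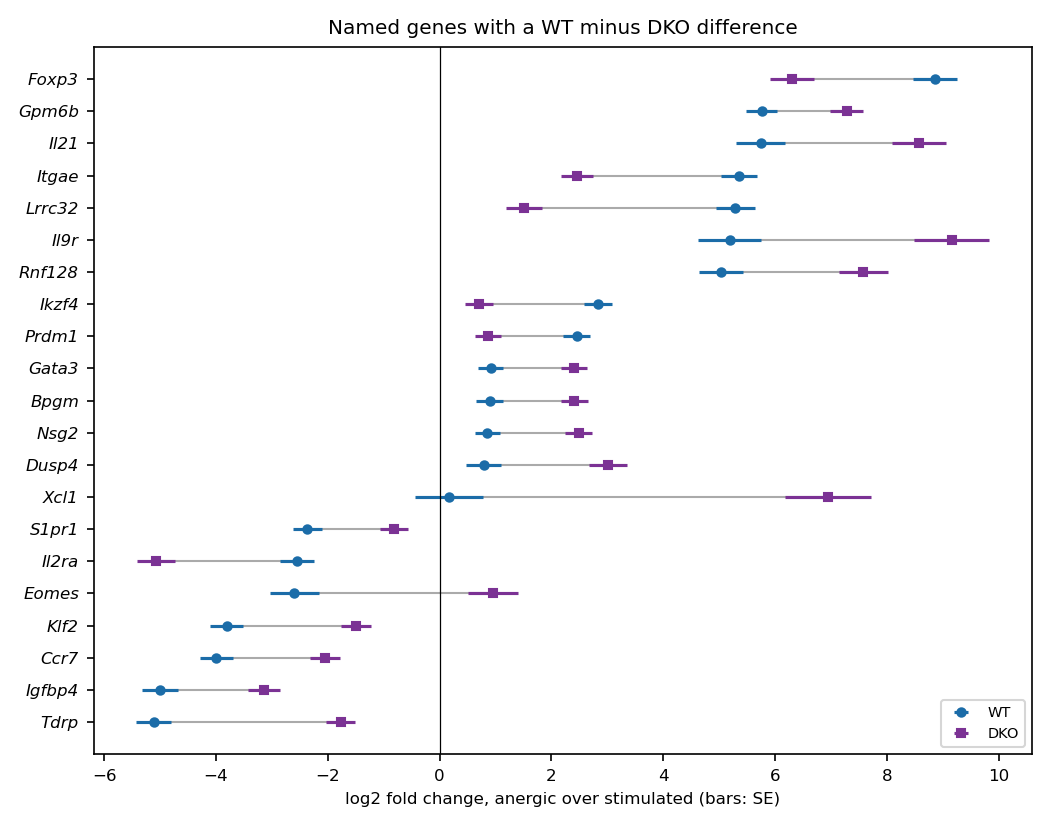
Log2 fold change of anergic over stimulated cells in WT (blue circles) and DKO (purple squares) cells for the 21 named genes whose fold change differed between the genotypes, with bars for the SE of each estimate. *Foxp3*, *Lrrc32*, *Ikzf4*, *Itgae* and *Prdm1* lie further right in WT cells, and *Il21*, *Rnf128*, *Il9r* and *Xcl1* further right in DKO cells.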

How the data were processed

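RNA of 2000 sorted cells per library was amplified with SMART-seq v4, made into libraries with Nextera XT and sequenced on a NovaSeq by the authors, with fastp for trimming, STAR for alignment to mm10 and featureCounts for counts per gene (versions not given in the sources used here). Deposited tables hold raw read counts and TPM per gene, both made by the authors. The counts were used as deposited for every test and the authors' TPM for levels. Further deposited tables hold the authors' own comparisons (log2 fold changes, p-values and FDR) and were not used. Of 55401 table entries, 117 without a name, with 0.0654% to 0.136% of a library's counts, were left out, and 53285 of the other 55284 were found by name in GENCODE vM21.

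Tests were edgeR (version 4.0.16, R 4.3.3) quasi-likelihood tests over all 18 libraries, with TMM factors, 6 groups and the chimera as a block, on 33795 genes kept by filterByExpr, with Benjamini-Hochberg adjustment over all of them and a prior count of 2. SEs were derived from each log2 fold change and its F statistic. The pairing comes from the labels and the study's methods, since the same chimera number is the same host. Deviations of the paired anergic and stimulated WT libraries from their group means had correlations of −0.0109, −0.22 and −0.263 in chimeras 10, 11 and 12. Anergic and stimulated WT libraries from different chimeras had correlations from −0.215 to 0.258. These values thus do not show that libraries of the same host were more alike. Replicate libraries of one group differed beyond sampling noise (chi-square of 6.96 to 43.6 per gene). With the chimera as a block, average differences between hosts are taken out before the test. The p-values rest on the scatter of libraries that is left, pooled over the 6 groups, with 3 chimeras a group.

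Alternatives were no block, the compared groups alone, RLE factors, TMM factors from genes with an average log2 CPM over 1, DESeq2 (1.42.0), no filter on low counts, tests on genes with an average log2 CPM over 1 alone, limma (3.58.1) on log2(TPM + 1) and log2(TPM + 0.1), each chimera or library left out, no immunoglobulin, TCR segment or sex-linked genes, and 2 settings added after seeing the data. The named genes were a fixed key list, up to 4 called members in each direction of each list, the 15 called genes in each direction with the smallest adjusted p among those with an absolute log2 fold change of at least 2 and 20 TPM, markers of other cells, and those of the first 3 kinds that passed the test of the genotype difference. Some of these genes, and a further marker of the sort gates, are not reported here. Members and lists were chosen with earlier results of these data known. Promoters came from RefSeq (GRCm38.p6), and 17567 tested genes matched one by symbol.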

Additional observations from a re-analysis of the deposited data

Results flagged for a closer look

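The log2 fold change of anergic over stimulated cells differed between the genotypes for 21 of the named genes, by edgeR's quasi-likelihood test of the WT minus DKO difference with Benjamini-Hochberg adjustment over all 33795 genes. Each test rests on 3 chimeras, and WT and DKO cells shared a host.

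Of 18 Treg genes tested, 6 had a higher fold change in WT than in DKO cells, against 0.101% of all genes, and the other 12, among them *Ikzf2* (WT minus DKO 0.61, adjusted p = 0.897) and *Nrp1* (0.33, adjusted p = 0.897), did not pass the test. *Lrrc32*, which encodes the TGF-β docking receptor GARP, had log2 fold changes of 5.29 in WT and 1.51 in DKO cells (WT minus DKO 3.78 ± 0.444, SE, adjusted p = 6.09e-05). *Itgae*, the αE integrin gene, had 5.36 in WT and 2.46 in DKO cells (WT minus DKO 2.90 ± 0.4, SE, adjusted p = 0.00039), and *Foxp3* had 8.86 in WT and 6.30 in DKO cells (WT minus DKO 2.55 ± 0.554, SE, adjusted p = 0.0309). *Foxp3* stood at 20.9, 17.9 and 20.3 TPM in DKO anergic and 447, 496 and 533 TPM in WT anergic cells. Its DKO fold change is set against 0.106, 0.227 and 0.308 TPM in DKO stimulated cells. For *Ikzf4*, which encodes the Treg factor Eos, they were 2.83 in WT and 0.70 in DKO cells (WT minus DKO 2.13 ± 0.342, SE, adjusted p = 0.00201). *Prdm1*, which encodes the effector factor BLIMP1, had 2.45 in WT and 0.86 in DKO cells (WT minus DKO 1.59 ± 0.325, SE, adjusted p = 0.0187). *Il2ra* was lower in anergic cells of both genotypes, with −2.55 in WT and −5.08 in DKO cells (WT minus DKO 2.53 ± 0.412, SE, adjusted p = 0.00214).

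The chemokine gene *Xcl1* had the widest gap among the genes named. It showed no called difference in WT cells and was higher in anergic than in stimulated DKO cells, with log2 fold changes of 0.17 in WT and 6.95 in DKO cells (WT minus DKO −6.78 ± 0.97, SE, adjusted p = 0.000562). Its levels were 56.2, 51.5 and 38.7 TPM in DKO anergic and 0.924, 0 and 0.225 TPM in DKO stimulated cells. The size of this gap thus depends on values near 0. In DKO stimulated cells *Il21*, *Rnf128*, *Il9r* and *Eomes*, named next, were near 0 too, at means of 0.515, 0.257, 0.0401 and 0.547 TPM. *Il21* had 5.74 in WT and 8.57 in DKO cells (WT minus DKO −2.83 ± 0.565, SE, adjusted p = 0.0151) and *Rnf128* had 5.03 in WT and 7.58 in DKO cells (WT minus DKO −2.54 ± 0.558, SE, adjusted p = 0.0337), the latter lost without the WT stimulated library of chimera 12 (adjusted p = 0.0841). *Il9r*, a cytokine receptor gene, had 5.19 in WT and 9.16 in DKO cells (WT minus DKO −3.97 ± 0.911, SE, adjusted p = 0.0465) and was lost without that library too (adjusted p = 0.118). *Eomes*, a T-box factor gene, was lower in anergic WT cells and showed no called difference in DKO cells, with −2.60 in WT and 0.96 in DKO cells (WT minus DKO −3.56 ± 0.621, SE, adjusted p = 0.00451). In the phosphatase gene *Dusp4* they were 0.79 in WT and 3.01 in DKO cells (WT minus DKO −2.22 ± 0.447, SE, adjusted p = 0.0162), and in the Th2 factor gene *Gata3* 0.91 in WT and 2.40 in DKO cells (WT minus DKO −1.49 ± 0.316, SE, adjusted p = 0.0259). The WT call for *Gata3* was itself lost without chimera 10 or 11 and with RLE factors or DESeq2.

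The homing and resting T cell genes *Klf2* (−2.31, adjusted p = 0.00204), *Ccr7* (−1.95, adjusted p = 0.00959), *S1pr1* (−1.55, adjusted p = 0.0428), *Igfbp4* (−1.86, adjusted p = 0.0281) and *Nsg2* (−1.63, adjusted p = 0.0137) had a lower fold change in WT than in DKO cells, as had *Tdrp* (−3.35, adjusted p = 6.09e-05), *Gpm6b* (−1.52, adjusted p = 0.0367) and *Bpgm* (−1.52, adjusted p = 0.0309). Apart from *Rnf128* and *Il9r*, the differences named here passed the test without the WT stimulated library of chimera 12 as well. The 21 genes were chosen because they passed the test, a choice that favors a kept sign in refits of mostly the same libraries. None of the 21 changed sign in any of 22 alternatives, and *Itgae*, *Lrrc32* and *Tdrp* passed in all 22. Only these 3 passed without chimera 11, and with *Il2ra* and *Xcl1* they were the 5 that passed without chimera 10. The fewest passes were those of *Il9r* (10 of 22), *Gpm6b* (11 of 22) and *Rnf128* (13 of 22), and *Foxp3* passed in 16.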

How the results depend on the processing

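Of the 125 genes named with a call for anergic over stimulated WT cells, 117 were called in each of the 22 alternatives that could be fitted for them, 8 lost the call in some (*Bcl6*, *Bpgm*, *Btla*, *Egr4*, *Gata3*, *Nsg2*, *Rrm2* and *Tk1*) and 0 changed sign. Many of these genes were named because this comparison called them, among them the 15 in each direction chosen for a small adjusted p. A call kept in refits of mostly the same libraries was thus favored by the choice. It does not show how stable calls are among all genes. Counts of calls over all genes moved with the setting. Genes higher in anergic cells came to 5623 and 5167 with limma on log2(TPM + 1) and log2(TPM + 0.1), and to 1364 to 3714 with a chimera or library left out. Genes lower came to 2184 with the compared groups alone and to 2519 to 4755 with one left out. Without the replicate block, 2537 genes were higher and 4279 lower, and the block moved no count of calls by over 1.5 times. The share of calls that were higher was 39.1%, 37.2% without the block, 49.9% with the compared groups alone, 48.5% without a filter, 45.1% with TMM factors from genes with an average log2 CPM over 1, 33.8% with DESeq2 and 52.3% without chimera 12. The cause was not tested.

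In DKO cells, 2013 to 4468 genes were higher and 1339 to 5186 lower with one left out. The lower count came to 3870 with TMM factors from genes with an average log2 CPM over 1, 3902 with tests on these genes alone, 4367 without the WT naive and stimulated libraries of chimera 12, and 4220 and 4213 in the 2 settings chosen after seeing the data, which combine the former 2 with leaving out the WT stimulated library of chimera 12. Under the same 5 settings, 290, 346, 325, 262 and 365 genes differed between the genotypes, with 107 for RLE factors, 247 without a filter, 413 and 286 with limma, and 24 (without chimera 10 or 11) to 657 (without chimera 12). For anergic over naive WT cells, calls came to 5563 and 5248 with limma, 5098 and 5214 in the settings chosen after seeing the data and 1734 to 4570 with one left out. For stimulated over naive WT cells they came to 6259 with tests on genes with an average log2 CPM over 1, 6325 and 6240 with limma and 1752 to 5119 with one left out.

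Among genes with no call, 3 turned sign. *Icos* was at 0.15 with the compared groups alone, 0.17 with TMM factors from or tests on genes with an average log2 CPM over 1, 0.16 without a filter, 0.44 with limma at either pseudocount, 0.30 without the WT naive and stimulated libraries of chimera 12 and 0.27 in the settings chosen after seeing the data, and lay from −0.28 to 0.36 with one left out. *Tcf7* was at 0.20 with limma and 0.00059 without the WT naive and stimulated libraries of chimera 12, and lay from −0.55 to 0.073 with one left out. *Xcl1* lay from −0.50 to 0.77 with one left out.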
